A study of Mus musculus with 28 samples.

Results

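Dnmt3a-mutant and control long-term haematopoietic stem cells (LT-HSC) that had engrafted in old mice were compared across all genes. The libraries were chosen by their names, which gave 7 of the 28 RNA sequencing libraries of the series, 4 mutant and 3 control. Marrow of young donors that were either Mx1-Cre controls or Dnmt3a-mutant had been given to aged CD45.1 recipients, and LT-HSC were taken back after 4 months. Mx1-Cre is a recombinase transgene whose promoter responds to interferon, and CD45.1 is a form of a leukocyte surface protein by which recipient cells are told from donor cells. The strain was C57BL/6. The labels used here do not describe the mutant Dnmt3a allele, do not say whether mutant donors carried Mx1-Cre, and do not give the sorting gate or the induction. Every one of the 7 libraries named 2 recipient animals. Nothing in the labels says whether the libraries came from separate donors, so p-values measure the spread between libraries. The comparison in young recipients had 4 control and 2 mutant LT-HSC libraries, each of which named only 1 animal. These young libraries helped to estimate the spread. MPP3, a myeloid-biased multipotent progenitor, was profiled from old recipients with 4 libraries per genotype. Both served as comparisons. The series title places the work in clonal haematopoiesis of ageing and tumour necrosis factor (TNF) receptors.

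DNMT3A is a methyltransferase that places new methyl groups on cytosines in DNA. Loss of its function in stem cells is known to favour self-renewal over differentiation, and mutated clones expand in the blood with age. LT-HSC are a rare, mostly quiescent population that sustains all blood lineages. Their RNA is small in amount, and transcripts of a few contaminating mature cells can be visible in it.

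No gene passed the test. In edgeR's quasi-likelihood test 0 of 14588 genes (0%) had a Benjamini-Hochberg adjusted p under 0.05, and the smallest adjusted p was 0.334. At an unadjusted p under 0.05 there were 1491 genes (10.2% of those tested), of which 855 (5.86%) were higher and 636 (4.36%) lower in mutant LT-HSC. Limma voom also called 0 genes, whereas DESeq2 called 380 of the 12883 genes to which it gave an adjusted p, 256 higher (1.99%) and 124 lower (0.963%). Of those 380 genes, 365 had an unadjusted p under 0.05 in edgeR, and 165 had overlapping mutant and control libraries. The values below therefore describe how the libraries lie, gene by gene, and are not calls.

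The libraries held 5.59 to 6.11 M counts in controls and 6.71 to 7.52 M counts in mutants (M, mega). Pearson correlations across genes of the log2 levels between a mutant and a control library ranged from 0.654 to 0.769, over the same span as those within mutants (0.651 to 0.748) and within controls (0.697 to 0.743). Levels are given as CPM (counts per M counts, after scaling of the libraries), always in the order of control replicates 1, 2 and 3 and mutant replicates 1, 2, 3 and 4. Immunoglobulin genes took 1.32% of the counts in mutant replicate 1 and 1.57% in mutant replicate 4. In the other 5 libraries that share lay between 0.000312% and 0.0103%. On the first principal component of all 13 LT-HSC libraries, mutant replicate 4 stood at 163.5 while the other 12 lay between -32.4 and 25.1. Mutant replicate 1 stood alone on the second component in the same way, at 154.2. Both were left out as an alternative throughout. Numbers in the column names placed control replicate 2 and mutant replicates 1, 2 and 4 in 1 sequencing pool, and control replicates 1 and 3 and mutant replicate 3 in another. Tested within pool 1 and within pool 2, with a lone library taken to vary like the other groups, 0 genes passed in edgeR; 532 and 358 genes were higher and 466 and 300 lower at an unadjusted p under 0.05. The median log2 change of all genes was 0.57 in pool 1 and -0.16 in pool 2, and the list medians below are read against these.

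Of the markers of LT-HSC, Hlf, Mecom and Procr had counts in all 7 libraries and were lowest in mutant replicate 4. Hoxb5, another marker given below, did not have counts in every library. Hlf, a transcription factor of stem cells, stood at 902, 506 and 531 CPM in controls and 1309, 1258, 1074 and 448 CPM in mutants. Mecom, a zinc finger regulator needed for stem cell maintenance, stood at 196, 291 and 112 CPM and at 273, 484, 313 and 41.6 CPM. Procr, the surface protein EPCR, was at 25.2, 7.36 and 16.9 CPM in controls and at 34, 22.2, 6.62 and 0.357 CPM in mutants. Cd48, a surface protein that LT-HSC lack, had no count in 4 of the 7 libraries and reached 21.6 CPM in mutant replicate 3. Flt3, a receptor of more committed progenitors, was measured at 34.5 to 78.5 CPM in every library.

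Dnmt3a itself did not separate the genotypes. Its level was 118, 94.7 and 46.2 CPM in control LT-HSC and 71.5, 164, 41.9 and 70.8 CPM in mutants, with a log2 change (mutant over control, here and below) of 0.01 (SE 0.53). The highest and the lowest library both belonged to the mutants. Counts over the whole gene do not show whether a part of it was deleted or changed, so this is no check of the labels.

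In 756 genes (5.18%) the mutant and control libraries did not overlap, with 402 genes (2.76%) entirely higher and 354 genes (2.43%) entirely lower in mutants. Random ordering of the libraries would give shares of about this size, so non-overlap alone does not mark a gene as changed. An unadjusted p under 0.05 as well was reached by 260 of the higher (1.78%) and 210 of the lower genes (1.44%), and 145 and 117 of these kept it without mutant replicates 1 and 4. For 23 of the 402 and 12 of the 354, the lowest library of the higher group held 3 counts or fewer. Among all tested genes 53.3% had a log2 change above 0, and the median was 0.11. For some of these genes the young LT-HSC libraries showed which old group lay apart. Neither old group lay apart from all other LT-HSC libraries in 286 of the 402 higher and 266 of the 354 lower genes. In 41 of the 402 genes (0.281% of the genes tested) the 4 old mutant libraries were also above all 6 young libraries. In 76 (0.521%) the 3 old controls were below the other 10 LT-HSC libraries instead, and 1 gene met both conditions. For the genes lower in mutants the corresponding numbers were 36 (0.247%) and 53 (0.363%).

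The 10 leading genes higher in mutant LT-HSC, taken by the smallest p among genes without overlap, were Pik3cd, Osm, Pcmtd2, Zfp36, Hdc, Rin2, Lbp, Epb41, Mov10 and Fosb. Pik3cd encodes the delta catalytic subunit of phosphoinositide 3-kinase, the form typical of leukocytes (chromosome 4, 149649168 to 149702571, minus strand, GRCm38). It stood at 3.82, 7.69 and 13.8 CPM in control and at 177, 61.2, 112 and 293 CPM in mutant LT-HSC, a log2 change of 4.25 (SE 0.71, adjusted p = 0.334 in edgeR). The lowest mutant library was above the highest control by more than the spread of the controls. Young LT-HSC lay between the groups at 21.8 to 79.2 CPM, so that it was the old controls that lay outside the range of the rest. Without mutant replicates 1 and 4 the log2 change was 3.36 (adjusted p = 0.613 in edgeR).

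Osm encodes oncostatin M, a cytokine of the interleukin-6 family made by myeloid cells (chromosome 11, 4236420 to 4241026, plus strand). No count was found in any of the 3 controls, and the mutants stood at 18.7, 2.83, 52.1 and 99.5 CPM. Set against the floor of 3 counts in each control library, the mutant mean was at least 83.0-fold higher. All 6 young libraries had some Osm, from 0.845 to 16.8 CPM, so the absence was limited to the old controls among LT-HSC.

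Pcmtd2, which encodes a protein with a carboxyl methyltransferase domain (chromosome 2, 181837854 to 181857461, plus strand), had the tightest mutant values of these genes. Controls were at 7.30, 4.42 and 4.40 CPM and mutants at 69.5, 63.1, 65.8 and 63.9 CPM, with a log2 change of 3.60 (SE 0.76). The young libraries reached 33.5 CPM, below every old mutant. Its change was 3.58 without the 2 immunoglobulin-rich libraries.

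Zfp36 encodes tristetraprolin, which binds AU-rich elements and hastens the decay of messenger RNAs of cytokines, among them that of TNF (chromosome 7, 28376784 to 28380253, minus strand). Controls stood at 656, 917 and 653 CPM and mutants at 1392, 1683, 1320 and 1725 CPM. All 4 mutants were above every other LT-HSC library, young ones included (512 to 675 CPM). The log2 change was 1.04 (SE 0.23) and 1.02 without mutant replicates 1 and 4.

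Hdc encodes histidine decarboxylase, the enzyme that makes histamine (chromosome 2, 126593667 to 126619299, minus strand). It had no count in the 3 controls and stood at 7.61, 8.74, 36.8 and 129 CPM in the mutants, a mean at least 87.4-fold higher than the floor of the controls. Young LT-HSC did not exceed 0.305 CPM. Hdc is also a gene of mast cells and basophils. Of the 20 markers listed for mast cells, basophils and eosinophils, 5 had no count in any of the 7 libraries (Cma1, Gzmb, Mcpt4, Ms4a2 and Tpsb2). Mutant replicate 4 held 1393 counts of Prg2 and 1338 counts of Epx, both eosinophil granule genes. Mutant replicate 2 held 0 counts of Prg2, Epx, Cpa3, Mcpt8 and Prss34 beside 68 counts of Hdc, and mutant replicate 3 held 878 counts of Cpa3, a mast cell carboxypeptidase. Summed over the 9 tested markers, the mutants stood at 298 to 1408 CPM and the controls at 499 to 1040 CPM (Gata2, a stem cell factor as well, is among them). What part other cells had in the Hdc level of replicate 4 was not tested.

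**Figure D1:**
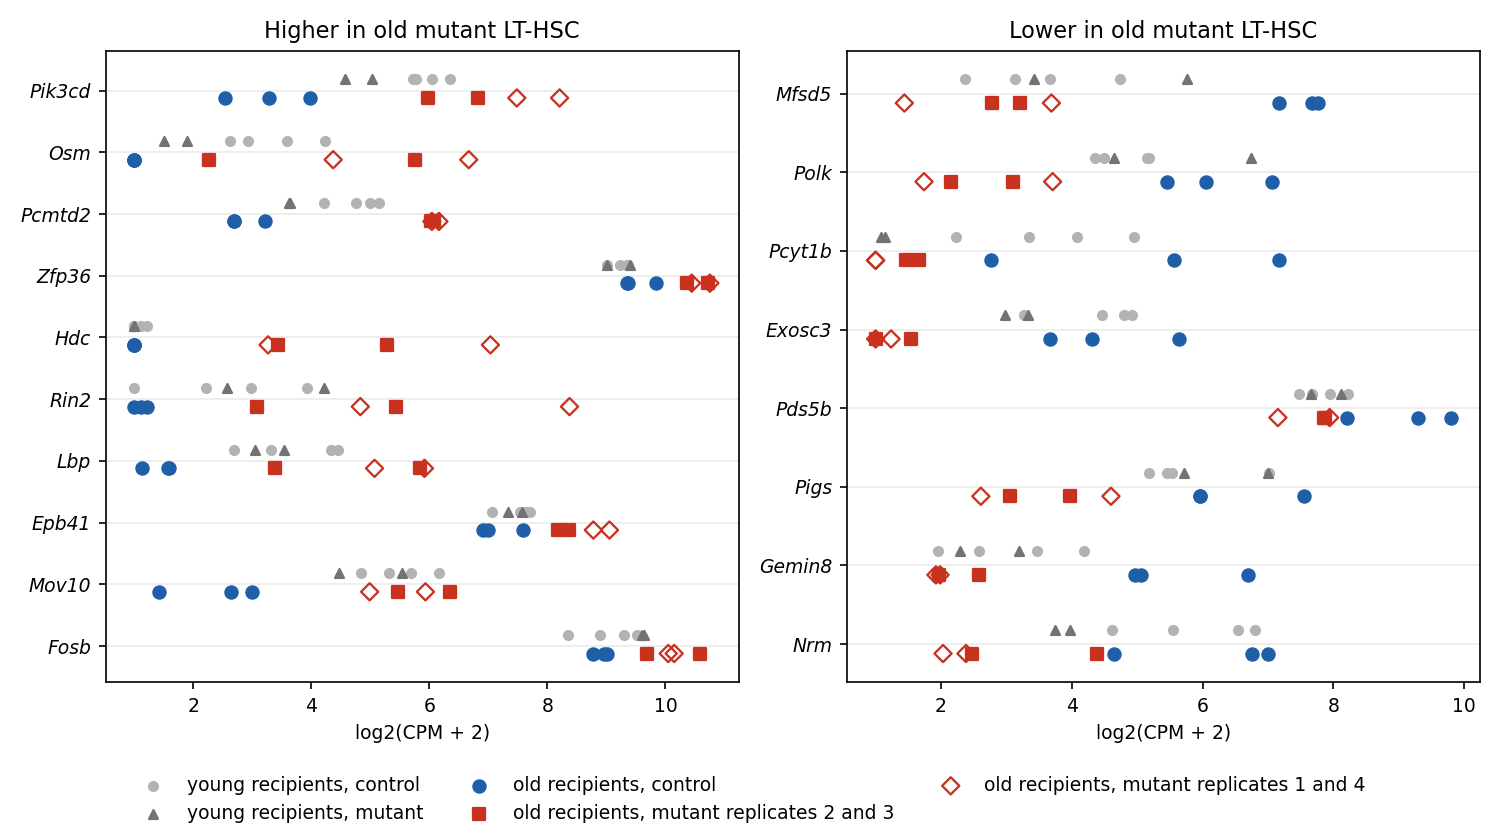
Levels of 18 leading genes on a scale of log2(CPM + 2), one row per gene, with 1 point per LT-HSC library (blue circles, 3 old controls; red squares and open diamonds, 4 old mutants; grey, 6 young libraries). By the way these genes were chosen, red and blue points do not overlap; the grey points lie with the mutants for Mov10 and Mfsd5, with the controls for Zfp36 and Hdc, and between for others.

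The other 5 genes on this side were Rin2, Lbp, Mov10, Epb41 and Fosb, the last of which is given further below. Rin2, an exchange factor for the small GTPase Rab5, was at 0.166, 0.327 and 0 CPM in controls and at 26.4, 6.43, 41.1 and 330 CPM in mutants. Lbp, which encodes the lipopolysaccharide-binding protein, was at 0.191 to 0.996 CPM in controls and at 58.3, 55.0, 8.47 and 31.6 CPM in mutants. Mov10, an RNA helicase, was at 5.98, 0.655 and 4.21 CPM and at 29.7, 42.4, 79.6 and 59.0 CPM. For Lbp and Mov10 the young libraries lay above all old controls. Epb41, which encodes the membrane skeleton protein 4.1, was at 118, 125 and 190 CPM in controls and at 529, 326, 289 and 437 CPM in mutants. Its log2 change of 1.45 (SE 0.34) became 1.09 without mutant replicates 1 and 4.

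On the lower side the leading genes included Mfsd5, Polk, Pcyt1b, Exosc3, Pds5b, Pigs, Gemin8 and Nrm. Mfsd5 encodes a membrane transporter of the major facilitator family (chromosome 15, 102279454 to 102281754, plus strand). It stood at 215, 203 and 141 CPM in controls and at 10.9, 4.89, 7.24 and 0.714 CPM in mutants, with a log2 change of -4.97 (SE 0.97) and of -4.94 without mutant replicates 1 and 4. The young libraries ranged from 3.14 to 52.0 CPM, below every old control.

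Polk, a DNA polymerase for synthesis past damaged bases, stood at 41.8, 132 and 64.3 CPM in controls and at 1.34, 2.44, 6.62 and 11.1 CPM in mutants. The young libraries (18.5 to 105 CPM) were above all 4 mutants. For Exosc3, a subunit of the RNA exosome, the controls were at 17.8, 47.8 and 10.7 CPM, and no mutant exceeded 0.9 CPM. Young libraries were above all 4 mutants for Exosc3 too, so the old mutants were the group that lay apart for both genes.

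Pds5b, a cohesin-associated protein, had the smallest fold difference of the lower genes named. It stood at 294, 888 and 626 CPM in controls and at 244, 230, 233 and 140 CPM in mutants, a log2 change of -1.51 (SE 0.37). The young libraries (175 to 297 CPM) overlapped the mutants and the lowest control. Pcyt1b, an enzyme of phosphatidylcholine synthesis, was at 4.81, 45.2 and 142 CPM in controls and at most 1.16 CPM in mutants. Young libraries reached values as low as those of the mutants for Pcyt1b. Pigs (attachment of GPI anchors), Gemin8 (assembly of splicing particles) and Nrm (inner nuclear membrane) had log2 changes of -3.13, -4.47 and -3.60.

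All 18 of these named genes had an unadjusted p under 0.05 in edgeR also without mutant replicates 1 and 4. With all libraries they had an adjusted p under 0.05 in DESeq2. They had been chosen for a small p and no overlap in these same libraries, so neither result is separate support. Mutant replicates 2 and 3 were clear of every control by that choice. Genes taken by an unadjusted p under 0.05 alone kept that p less often. Of the 855 genes higher at an unadjusted p under 0.05, 404 kept such a p in the same direction without the 2 libraries, 9 took the opposite sign and 109 were no longer tested. Of the 636 lower genes, 237 kept it, 0 took the opposite sign and 3 were no longer tested. The highest mutant value belonged to replicate 1 in 269 and to replicate 4 in 293 of the 855 higher genes, and to replicates 2 and 3 in 135 and 158. In the 636 lower genes, replicate 1 was the lowest mutant in 375.

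Tested on mutant replicates 2 and 3 alone against the 3 controls, 0 of 14204 genes were called in edgeR, and 1147 (8.08%) had an unadjusted p under 0.05. Of these, 643 (4.53%) were higher and 504 (3.55%) lower. With only 2 mutant libraries, 1653 (11.3%) of the 14588 genes of the fit with all libraries were entirely higher and 1087 (7.45%) entirely lower. Random ordering of so few libraries would again give shares of about this size. DESeq2 called 288 genes in that comparison, and 131 of the 380 genes it called with all libraries were among them. The leading genes there that also showed no overlap with all 4 mutants were Trim30a, Ulk1, Clip1, Sec31a, St8sia4 and Akap17b on the higher side. Ulk1, a kinase that starts autophagy, stood at 37.5, 7.69 and 19.3 CPM in controls and at 325, 224, 288 and 40.3 CPM in mutants. Mutant replicate 4 was thus close to the highest control. Sec31a, a coat subunit of vesicles that leave the endoplasmic reticulum, was at 79.2, 75.8 and 76.0 CPM and at 143, 251, 420 and 164 CPM. On the lower side they were Sox4, Zc3h8, Hectd2, Zfp141, Dnajc9 and Entpd7. Sox4, a transcription factor of early lymphoid and progenitor cells, was at 131, 263 and 176 CPM in controls and at 106, 31.1, 56.4 and 53.2 CPM in mutants, with a log2 change of -1.62 (SE 0.48) and of -2.12 without the 2 libraries. Dnajc9, a histone co-chaperone, had a log2 change of -2.66 (SE 0.69).

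Immediate early genes, which are transcribed within minutes of a stimulus without new protein synthesis, were among the leading genes. Of 30 tested members 6 (20%) were entirely higher in mutants and 0 entirely lower, beside 2.76% and 2.43% of all genes. The 6 were Fosb, Jun, Jund, Klf2, Klf6 and Zfp36. All of them also lay above every young LT-HSC library. The median log2 change of the list was 0.34, and 0.17 without mutant replicates 1 and 4, when the median of all genes was -0.05. It was 0.81 within pool 1 and -0.37 within pool 2, so it did not keep its side of 0 within both pools.

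Fosb, a subunit of the transcription factor AP-1, stood at 515, 437 and 494 CPM in controls and at 1133, 1543, 822 and 1056 CPM in mutants, a log2 change of 1.24 (SE 0.29). Jun, its usual partner, was at 231, 480 and 431 CPM and at 1030, 509, 648 and 1033 CPM. The gap for Jun was narrow, because mutant replicate 2 was only slightly above the highest control. Jund was at 34.4, 39.9 and 17.2 CPM in controls and at 266, 105, 139 and 94.0 CPM in mutants, a log2 change of 2.31 (SE 0.57).

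Klf2 and Klf6 encode zinc finger factors; Klf2 is known for holding lymphocytes and endothelium in a quiescent state. Klf2 stood at 7.47, 11.8 and 1.53 CPM in controls and at 69.5, 69.9, 72.4 and 100.3 CPM in mutants, a log2 change of 3.49 (SE 0.92) and of 3.36 without mutant replicates 1 and 4. Klf6 stood at 334, 417 and 317 CPM and at 1041, 751, 506 and 632 CPM. Both were separated by more than the range of the controls in all but the lowest mutant of Klf6. Myc, a growth regulator on the same list, went the other way, with 281, 394 and 848 CPM in controls and 169, 231, 324 and 208 CPM in mutants. Its libraries overlapped, and the log2 change was -1.12 (SE 0.37).

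Genes induced by the transcription factor NF-kB, which acts downstream of TNF receptors, were next. Of 69 tested members 54 had a log2 change above 0 (78.3%, beside 53.3% of all genes), 8 (11.6%) were entirely higher and 0 entirely lower, beside 2.76% and 2.43% of all genes. Their median log2 change was 0.67, and 0.40 without mutant replicates 1 and 4. It was 1.05 within pool 1 and 0.28 within pool 2. The 8 were Cxcl2, Nfkb2, Panx1, Sgk1, Tlr2, Tnfaip2, Tnfaip8 and Zfp36. Genes of both lists are also made in mature myeloid cells, whose markers were highest in mutant replicate 4.

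Nfkb2 encodes p100, a precursor of an NF-kB subunit. It stood at 2.99, 0.982 and 0 CPM in controls and at 29.4, 10.4, 67.9 and 30.1 CPM in mutants, a log2 change of 4.68 (SE 1.59) and of 4.87 without mutant replicates 1 and 4. Tlr2, a receptor for bacterial lipoproteins, was at 3.98, 0.655 and 0 CPM and at 50.7, 37.5, 13.1 and 114 CPM. Cxcl2, a chemokine for neutrophils, was at 1.66, 0 and 0 CPM and at 61.9, 4.11, 26.8 and 102 CPM. Tlr2 was above every young library in all 4 mutants, and Cxcl2 in 3 of them.

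Tnfaip2 and Tnfaip8 are named for their induction by TNF. Tnfaip2 stood at 12, 30.9 and 33.7 CPM in controls and at 88.2, 162, 34 and 48.7 CPM in mutants, so that mutant replicate 3 nearly touched the highest control. Tnfaip8 was at 65.6, 26.8 and 17.4 CPM and at 123, 77, 122 and 174 CPM. Young libraries spanned both groups for Tnfaip8. Sgk1 and Panx1 had log2 changes of 2.44 (SE 1.60) and 2.27 (SE 1.34) with unadjusted p above 0.05.

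**Figure D2:**
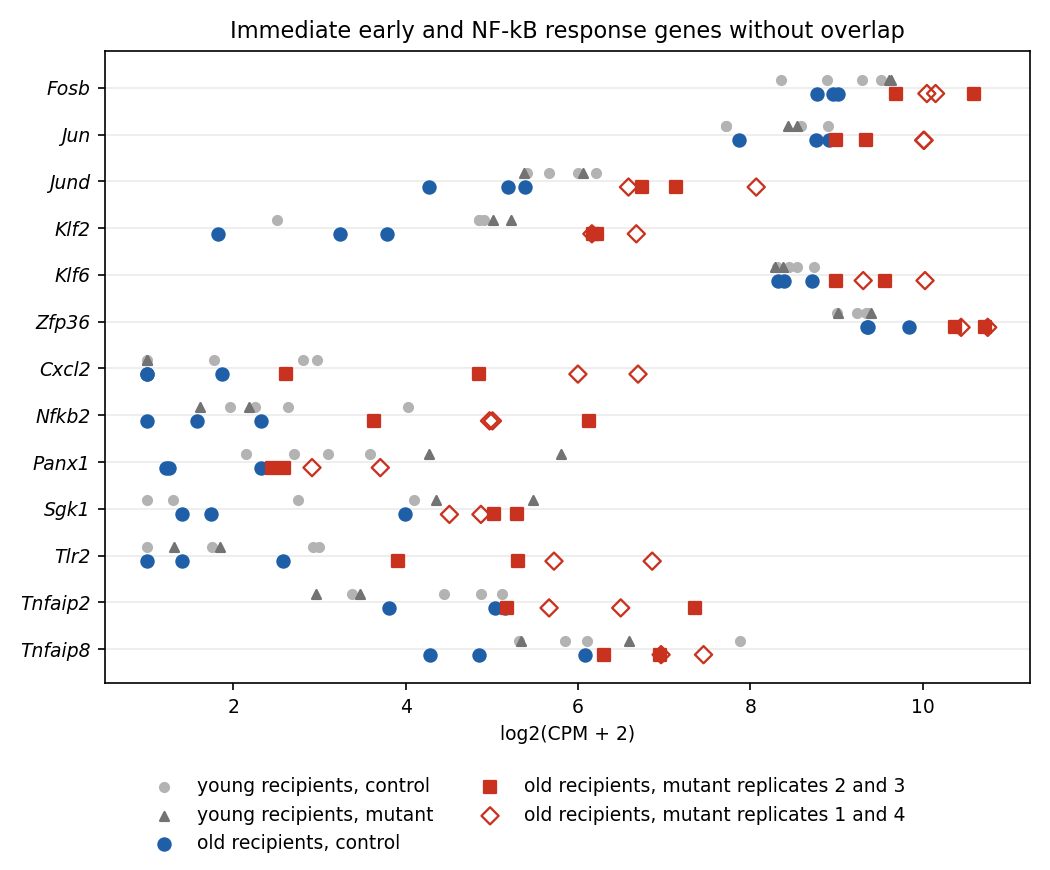
Levels of the 13 immediate early and NF-kB response genes without overlap, on a scale of log2(CPM + 2), with 1 point per LT-HSC library and colours as in the plot of the leading genes. Fosb, Jun, Jund, Klf2, Klf6 and Zfp36 have all 4 old mutants to the right of the grey young libraries; for Tnfaip8 and Panx1 the young libraries reach beyond the mutants.

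Promoter sequences of RefSeq (GRCm38.p6, 250 bases before to 50 after a transcript start) were found for 12 of these 13 genes. They were searched on both strands for the NF-kB site, the CArG box bound by serum response factor, and TGACGTCA, the cAMP response element. An NF-kB site was found in 4 of the 12 genes (Cxcl2, Fosb, Nfkb2 and Tlr2), a CArG box in 1 (Zfp36) and TGACGTCA in 0. Among all 27025 genes with a promoter in that table, 5.14% held an NF-kB site, 1.81% a CArG box and 2.03% TGACGTCA. Cxcl2, Nfkb2 and Tlr2 came from the NF-kB response list, which was made of genes induced by NF-kB. The share among all genes is therefore no test of these matches. A match is a description of these letters only. Promoters of 5 genes are shown because these genes hold the matches; capitals mark the NF-kB site, or the CArG box in Zfp36, and matches that overlap are capitalised as 1 stretch. The intervals are chr7:28379179-28379478 (minus strand) for Zfp36, chr7:19309996-19310295 (minus) for Fosb, chr5:90903649-90903948 (plus) for Cxcl2, chr3:83841559-83841858 (minus) for Tlr2 and chr19:46304487-46304786 (plus) for Nfkb2, of which 1 of several starts in the table is shown.
Zfp36: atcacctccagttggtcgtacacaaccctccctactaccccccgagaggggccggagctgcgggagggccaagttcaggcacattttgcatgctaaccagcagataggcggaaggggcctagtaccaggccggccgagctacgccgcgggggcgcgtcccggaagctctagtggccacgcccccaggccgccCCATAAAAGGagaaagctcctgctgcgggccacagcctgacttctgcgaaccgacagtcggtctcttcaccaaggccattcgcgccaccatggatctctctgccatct
Fosb: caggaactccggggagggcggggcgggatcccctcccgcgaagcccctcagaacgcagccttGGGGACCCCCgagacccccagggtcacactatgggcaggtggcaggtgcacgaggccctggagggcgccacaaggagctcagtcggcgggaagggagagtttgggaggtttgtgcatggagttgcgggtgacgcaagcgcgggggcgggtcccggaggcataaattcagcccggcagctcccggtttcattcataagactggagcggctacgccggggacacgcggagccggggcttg
Cxcl2: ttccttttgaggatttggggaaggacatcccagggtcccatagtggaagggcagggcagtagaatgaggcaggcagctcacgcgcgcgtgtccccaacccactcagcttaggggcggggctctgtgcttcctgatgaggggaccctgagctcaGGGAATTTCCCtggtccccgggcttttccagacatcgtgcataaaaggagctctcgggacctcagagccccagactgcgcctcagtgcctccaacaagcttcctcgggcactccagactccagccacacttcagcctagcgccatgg
Tlr2: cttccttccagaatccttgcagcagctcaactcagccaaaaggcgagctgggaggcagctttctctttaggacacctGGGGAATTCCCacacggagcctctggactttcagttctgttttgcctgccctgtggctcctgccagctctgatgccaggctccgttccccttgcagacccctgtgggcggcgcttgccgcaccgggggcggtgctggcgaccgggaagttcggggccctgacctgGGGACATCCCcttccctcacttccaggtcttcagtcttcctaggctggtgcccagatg
Nfkb2: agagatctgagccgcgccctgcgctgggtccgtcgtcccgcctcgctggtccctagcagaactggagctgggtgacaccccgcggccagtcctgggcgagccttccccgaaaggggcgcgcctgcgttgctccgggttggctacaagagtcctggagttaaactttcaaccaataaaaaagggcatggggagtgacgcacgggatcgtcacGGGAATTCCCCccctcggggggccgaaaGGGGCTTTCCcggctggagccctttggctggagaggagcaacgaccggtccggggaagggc
In Cxcl2, Tlr2 and the Nfkb2 promoter shown, 1 stretch matched the site at 2 overlapping positions. Tlr2 held a further match across the start, and Nfkb2 a further match just before it. The promoter of Zfp36 held no NF-kB match in this window.

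Tnf and both of its receptors had overlapping libraries. Tnf was close to the floor in most libraries, at 0.332, 1.15 and 0 CPM in controls and at 10.4, 0, 0.154 and 1.96 CPM in mutants, which overlapped. Tnfrsf1a, the receptor through which TNF triggers cell death and inflammation, stood at 7.63, 10.3 and 153 CPM and at 100.1, 29.4, 35.0 and 9.10 CPM. Its log2 change of -0.39 (SE 0.97) turned to 2.27 without control replicate 3. Tnfrsf1b, the second TNF receptor, was at 5.48, 55.0 and 17.8 CPM in controls and at 85.4, 92.8, 44.1 and 195 CPM in mutants, with a log2 change of 2.00 (SE 0.89, adjusted p = 0.484 in edgeR). Mutant replicate 3 lay below control replicate 2, so the groups overlapped. Of 23 tested ligands and receptors of the TNF family, 4 (17.4%, beside 5.86% of all genes) were higher at an unadjusted p under 0.05, namely Ltb, Tnfrsf1b, Tnfrsf25 and Tnfsf12, and 1, Tnfrsf12a, was lower (4.35%, beside 4.36%). Without mutant replicates 1 and 4 that p was reached by 1 higher gene, Ltb, and 1 lower gene, Tnfrsf12a, of 20 tested. Ltb, the membrane partner of lymphotoxin, was the 1 gene entirely higher (4.35%, beside 2.76%), and its lowest mutant library held 1 count. Tnfrsf25 had counts in mutant replicates 2 and 4 only (6.94 and 23.2 CPM), and Tnfsf12 stood at 47.3 CPM in mutant replicate 1 and at most 0.77 CPM in the other 6 libraries. Tnfrsf12a had no count in mutants or control replicate 3 and stood at 21.1 and 2.29 CPM in control replicates 1 and 2. The median of the list was 1.15, and -0.16 without mutant replicates 1 and 4.

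In the signalling chain below the receptors, 2 of 40 tested genes (5%) were entirely higher and 1 (2.5%) entirely lower, beside 2.76% and 2.43% of all genes. Besides Nfkb2, the higher one was Rnf31, the catalytic subunit of the linear ubiquitin ligase. It stood at 4.32, 1.15 and 5.94 CPM in controls and at 118, 43.6, 22.8 and 20.9 CPM in mutants, a log2 change of 3.75 (SE 1.17). The lower one was Tab1, an activator of the kinase TAK1, at 5.64, 13.1 and 27.6 CPM in controls and at most 1.78 CPM in mutants.

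Of 40 tested stem cell identity genes 27 (67.5%, beside 53.3% of all genes) had a log2 change above 0. Entirely higher were 3 (7.50%, beside 2.76%), namely Mllt3, Ifitm1 and Hoxb5, and 0 were entirely lower (beside 2.43%). The median log2 change was 0.26, and 0.49 without mutant replicates 1 and 4. Mllt3, which sustains self-renewal of human stem cells, stood at 99.3, 119 and 54.2 CPM in controls and at 794, 457, 122 and 126 CPM in mutants, a log2 change of 2.04 (SE 0.60). Ifitm1, a membrane protein induced by interferon, was at 51.5, 46.5 and 29.1 CPM and at 346, 211, 82.3 and 57.8 CPM. For both genes the old controls were below all young libraries, and mutant replicates 3 and 4 lay just above the controls. Hoxb5 was at 0.664, 0 and 0 CPM in controls and at 0.746, 20.7, 20.5 and 0.892 CPM in mutants, with 2 mutants near the level of the highest control.

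Lower values among these genes were found for Meis1 and Tal1, transcription factors of stem cells. Meis1 stood at 767, 272 and 1435 CPM in controls and at 405, 454, 363 and 267 CPM in mutants, a log2 change of -1.15 (SE 0.40). Tal1 was at 55.6, 396 and 118 CPM and at 97.6, 77.6, 61.5 and 40.1 CPM. Both overlapped, and in each gene 2 controls lay above all 4 mutants.

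Genes known to be higher in aged stem cells had a median log2 change of 0.95 with all libraries and of 0.90 without mutant replicates 1 and 4. It was 1.51 within pool 1 and 0.06 within pool 2. Of 26 tested members, 19 (73.1%, beside 53.3% of all genes) had a log2 change above 0. Entirely higher were 3 (11.5%, beside 2.76%), Fosb, Klf6 and Vmp1, and 1 was entirely lower (3.85%, beside 2.43%), Gstm2. Summed over the list, controls stood at 2153, 2238 and 2409 CPM and mutants at 4451, 5290, 3187 and 3261 CPM; abundant genes such as Fosb and Klf6 weigh most in such a sum, and both are also on the immediate early list. Vmp1, an endoplasmic reticulum protein of autophagy, was at 69.0, 36.7 and 74.3 CPM and at 126, 153, 217 and 98.8 CPM. Vwf, the von Willebrand factor that marks platelet-biased stem cells, was at 153, 94.6 and 195 CPM and at 681, 335, 281 and 136 CPM, with mutant replicate 4 within the control range. Gda, guanine deaminase, was at 32.7, 42.5 and 142 CPM and at 378, 478, 135 and 394 CPM. Only mutant replicate 3 kept the Gda values from separating.

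Genes of S phase, in which DNA is copied, had log2 changes mostly below 0. Of 45 tested, 13 (28.9%, beside 53.3% of all genes) were above 0, 0 were entirely higher and 2 (4.44%, beside 2.43%) entirely lower, Nasp among them, and the median log2 change was -0.77 with all libraries and -0.81 without mutant replicates 1 and 4. It was -0.10 within pool 1 and -0.56 within pool 2. Unadjusted p under 0.05 was reached by 6 of them (13.3%, beside 4.36% of all genes), all lower in mutants. Nasp, a histone chaperone, stood at 57.4, 75.6 and 72.2 CPM in controls and at 38.2, 28.5, 38.4 and 32.1 CPM in mutants. Its log2 change was -1.0 (SE 0.56), and young LT-HSC (26.1 to 63.8 CPM) overlapped both groups.

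For G2 and M phase, 2 of 54 tested genes (3.70%, beside 2.43% of all genes) were entirely lower, Gtse1 and Ctcf, and 0 entirely higher. A log2 change above 0 was found in 19 of the 54 (35.2%, beside 53.3%). At an unadjusted p under 0.05 in edgeR 6 were lower (11.1%, beside 4.36%) and 0 higher. Without mutant replicates 1 and 4, 3 were lower at that p. The median was -0.28, or -0.73 without mutant replicates 1 and 4. It ranged from -0.89 (without mutant replicate 4) to 0.08 (without control replicate 3) when 1 library was left out, and was 0.01 without mutant replicate 2, so its side of 0 was not stable. Genes that mark division most directly did not separate. Mki67 stood at 962, 1124 and 1199 CPM in controls and at 532, 312, 1073 and 1659 CPM in mutants, and Top2a at 271, 237 and 363 CPM and at 319, 133, 324 and 324 CPM. Mutant replicate 4 was the highest of the 7 libraries for Mki67. Trp53, which encodes the p53 tumour suppressor, was at 308, 905 and 645 CPM in controls and at 151, 360, 193 and 310 CPM in mutants. Its libraries overlapped by the first control alone, and the log2 change was -1.29 (SE 0.38). Trp53 is on the list of cell cycle inhibitors and went against it. Of 16 tested inhibitors 13 had a log2 change above 0 (81.25%, beside 53.3% of all genes). Their median was 0.54, and 0.02 without mutant replicates 1 and 4. Trp53 was the 1 inhibitor lower at an unadjusted p under 0.05 in edgeR (6.25%, beside 4.36%). In bulk RNA, fewer cells of a kind and less RNA per cell cannot be told apart, here as in the lineage markers below.

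**Figure D3:**
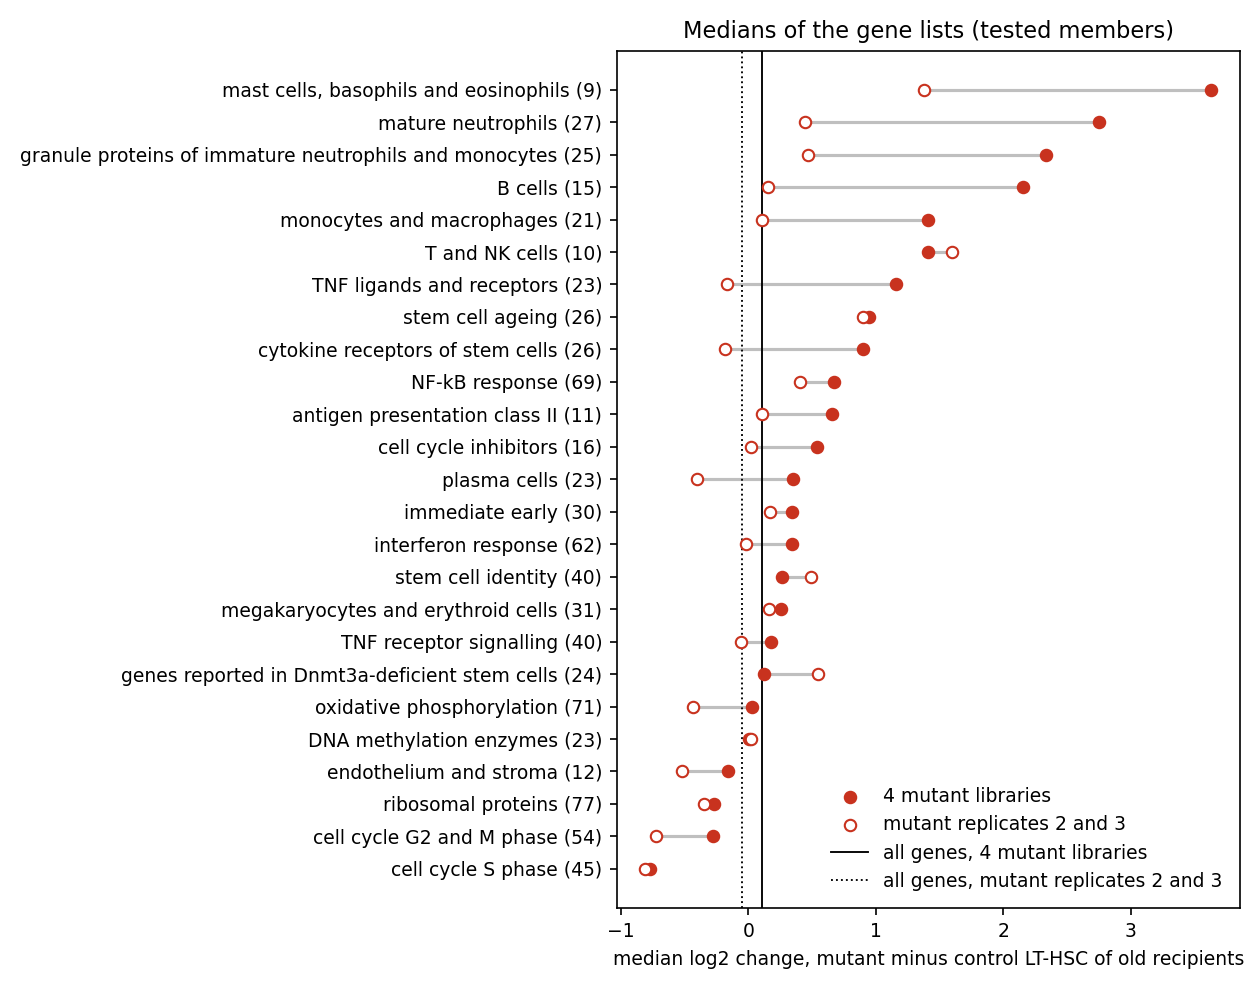
Median log2 change (mutant minus control, LT-HSC of old recipients) over the tested members of each gene list, with the number tested in parentheses; filled points use 4 mutant libraries and open points mutant replicates 2 and 3. Lines mark the median of all genes (solid, 0.11; dotted, -0.05). The medians of mature neutrophils (2.75 and 0.45), mast cells and their kin (3.63 and 1.38), B cells (2.15 and 0.15) and granule proteins (2.33 and 0.47) move most between both points; stem cell ageing and S phase genes stay at 0.95 and 0.90, and at -0.77 and -0.81.

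Enzymes that add, remove or read DNA methylation were spread around 0. Of 23 tested, 1 was entirely higher (4.35%, beside 2.76% of all genes) and 1 entirely lower (4.35%, beside 2.43%). Dnmt1, which copies methylation after replication, was the lower one, at 214, 225 and 371 CPM in controls and 76.1, 75.8, 203 and 155 CPM in mutants, a log2 change of -1.08 (SE 0.43). Ogt, which binds TET enzymes, was the higher one, at 522, 492 and 422 CPM and at 1108, 691, 596 and 549 CPM. Dnmt3b, the other de novo methyltransferase, was at 63.9, 12.6 and 83.1 CPM in controls and at 18.5, 41.8, 14.5 and 16.9 CPM in mutants. Tet2, an enzyme that oxidises methylcytosine, was at 61.4, 114 and 93.1 CPM and at 111, 231, 99.2 and 277 CPM. Both overlapped.

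The interferon list had 3 of 62 tested genes (4.84%) entirely higher and 0 entirely lower, beside 2.76% and 2.43% of all genes. Oas3, an antiviral enzyme that makes oligoadenylates, stood at 23.4, 31.9 and 24.5 CPM in controls and at 94.0, 45.1, 88.7 and 139 CPM in mutants. Bst2, the membrane protein tetherin, was at 0, 0.164 and 0 CPM and at 6.42, 8.23, 7.70 and 14.3 CPM. Trim30a was at 17.1, 14.1 and 11.3 CPM and at 21.8, 65.8, 218 and 79.2 CPM. Young LT-HSC lay between 68.2 and 130 CPM for Trim30a, again above the old controls. Irf7, a factor that amplifies interferon responses, was at 413 CPM in mutant replicate 3 and at most 7.49 CPM in the other 6 libraries. The median of the list was 0.34, and -0.02 without mutant replicates 1 and 4.

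Most markers of mature neutrophils, granules and B cells had log2 changes above 0, and their summed levels spread widely over the mutant libraries. Above 0 were 26 of 27 tested genes of mature neutrophils (96.3%), 23 of 25 of granule proteins (92%) and 13 of 15 of B cells (86.7%), beside 53.3% of all genes. At an unadjusted p under 0.05, 5 neutrophil genes (18.5%, beside 5.86%) were higher and 0 lower. Without mutant replicates 1 and 4 the counts above 0 were 14 of 20, 15 of 22 and 9 of 15, beside 6751 of 14204 genes, and 1 neutrophil gene was higher at that p. The summed level of 27 tested genes of mature neutrophils was 178, 2180 and 1177 CPM in controls and 399, 201, 2954 and 19925 CPM in mutants. S100a8, a neutrophil granule and cytosol protein, stood at 4.98, 188 and 192 CPM and at 99.8, 4.37, 514 and 3203 CPM. The median log2 change of this list was 2.75 with all libraries and 0.45 without mutant replicates 1 and 4. Hp, haptoglobin, had no count in controls and was at 9.40, 0.257, 24.5 and 163 CPM in mutants. It had 2 counts in mutant replicate 2. For 15 tested B cell genes the sums were 116, 226 and 300 CPM and 581, 103, 340 and 934 CPM. Jchain, the joining chain of secreted antibodies, was at most 0.332 CPM in controls and at 138, 0, 1.08 and 420 CPM in mutants, which followed the 2 immunoglobulin-rich libraries.

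**Figure D4:**
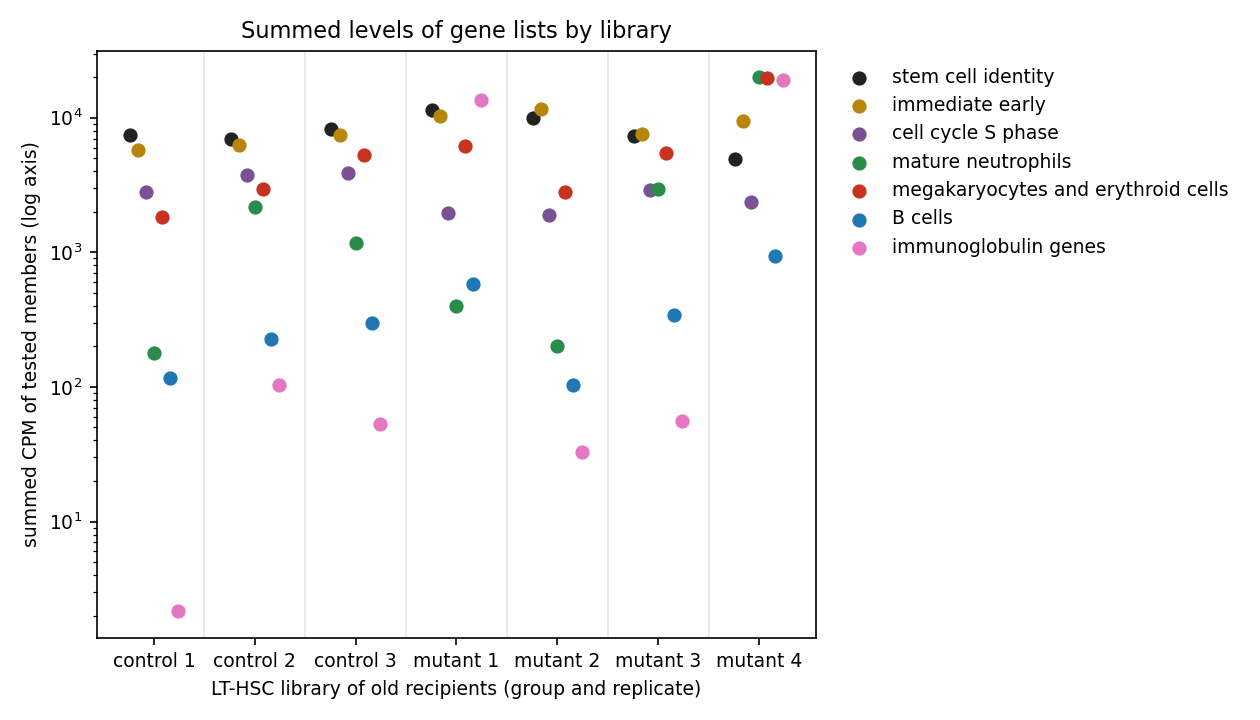
Summed CPM of the tested members of 7 gene lists (log axis) in each LT-HSC library of old recipients, with controls 1 to 3 on the left and mutants 1 to 4 on the right. Immunoglobulin genes reach 13620 and 19175 CPM in mutants 1 and 4; mature neutrophil genes reach 19925 CPM in mutant 4; immediate early genes range from 5723 to 7432 CPM in controls and from 7522 to 11690 CPM in mutants.

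Megakaryocyte and erythroid genes split by lineage. Of 31 tested, 0 were entirely higher and 2 (6.45%, beside 2.43% of all genes) entirely lower, Pf4 and Itga2b, both of platelets and their precursors. Pf4, platelet factor 4, stood at 48.8, 33.2 and 446 CPM in controls and at 14.2, 12, 14.6 and 0 CPM in mutants, a log2 change of -4.11 (SE 1.22). Itga2b, the integrin CD41, was at 41.7, 152 and 32.9 CPM and at 2.24, 1.29, 26 and 32.8 CPM, with mutant replicate 4 just under the lowest control. Gata1, the master regulator of both lineages, had at most 0.178 CPM in mutants and 0, 36.2 and 19.0 CPM in controls. Slc4a1, the anion exchanger of red cells, was at 4.32, 0 and 44.0 CPM in controls and at 310, 15.4, 256 and 1032 CPM in mutants. Mutant replicate 2 lay within the control range for that gene.

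The genotype effect in old recipients was set against that in young recipients in the same fit, with 2 young mutant libraries. The difference between the 2 effects passed the test for 0 of 14588 genes (smallest adjusted p 0.618 in edgeR), and 1149 (7.88%) had an unadjusted p under 0.05. In young LT-HSC the genotype effect itself reached an unadjusted p under 0.05 for 432 genes (2.96%), and in old MPP3 for 804 (5.77%). For Pik3cd the log2 difference of the effects was 5.49 (SE 1.03), for Mfsd5 -6.38 (SE 1.31), and for Pcmtd2 4.94 (SE 1.12). For Fosb it was 0.69 (SE 0.43) and for Zfp36 1.07 (SE 0.34). None of these 5 had an adjusted p under 0.05. The genes had been chosen for their effect in old LT-HSC, which is part of that difference.

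The same contrast against MPP3 of old recipients gave 1 call among 16309 genes (0.00613%), Hdc. The log2 genotype effect in LT-HSC exceeded that in MPP3 by 11.89 (SE 1.91, adjusted p = 0.0255 in edgeR), and the adjusted p was 0.0343 without mutant LT-HSC replicates 1 and 4. Titles show that LT-HSC and MPP3 libraries share recipient animals: the 15 old libraries fall into 7 sets that share an animal, each with both cell types. With these sets as a block the difference was 11.24 (SE 1.60, adjusted p = 0.0359 in edgeR) and Hdc was the 1 call. With the block and without mutant LT-HSC replicates 1 and 4 it was 11.10 (SE 1.88, adjusted p = 0.474 in edgeR), and 0 of 16193 genes were called, with 556 higher and 288 lower at an unadjusted p under 0.05. Levels of MPP3 were scaled among MPP3 libraries only, so a level set across both cell types is approximate. In MPP3 the controls stood at 27.9, 90.1, 63.6 and 55.6 CPM and the mutants at 14.8, 16.2, 45.3 and 94.0 CPM. MPP3 of both genotypes thus expressed Hdc, and among LT-HSC of old recipients only mutants had counts. As the 3 controls are at 0, the size of this difference depends on how the fit treats 0 counts.

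None of the other leading genes passed that test in edgeR; limma voom called Osm as well as Hdc. Osm was at 5.6 to 9.24 CPM in control MPP3 and at 14.6, 0.505, 7.89 and 0.288 CPM in mutant MPP3. Pik3cd was at 48.8 to 105 CPM in control and at 50.2 to 185 CPM in mutant MPP3, above all 3 old control LT-HSC libraries. Lbp was at 33.3 to 66.7 CPM in control MPP3, also above the old control LT-HSC. Zfp36 and Mfsd5 lay the other way, with the old control LT-HSC high. Zfp36 was at 349 to 505 CPM in control and 324 to 702 CPM in mutant MPP3 beside 653 to 917 CPM in old control LT-HSC. Mfsd5 was at 19.3 to 38.5 CPM in control MPP3, below all 3 old control LT-HSC libraries.

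**Figure D5:**
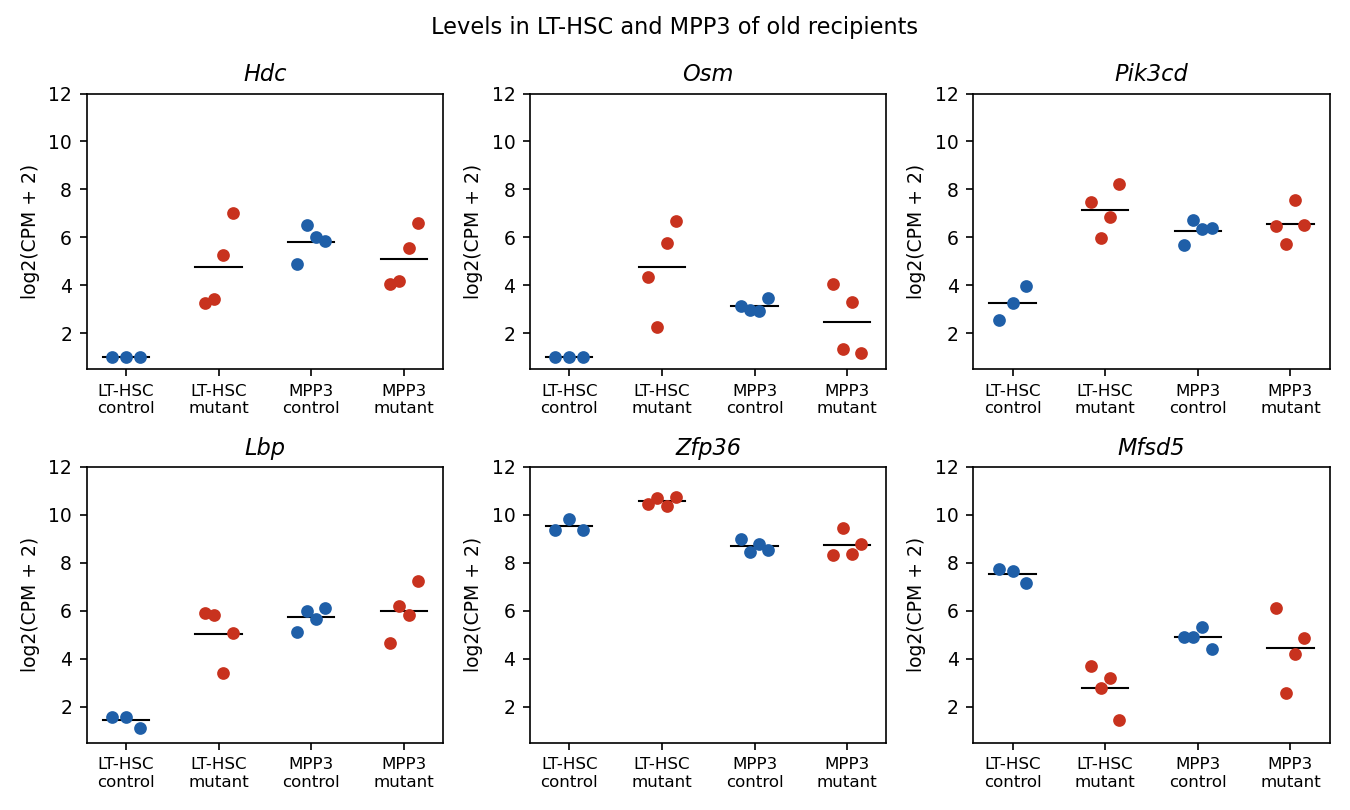
Levels of 6 leading genes in LT-HSC and MPP3 of old recipients on a scale of log2(CPM + 2), with 1 point per library (blue, control; red, mutant) and a line at the mean of these log2 values. For Hdc, Osm, Pik3cd and Lbp the control LT-HSC lie below all other groups' means; for Mfsd5 they lie above.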

How the data were processed

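Whole-number gene counts of polyadenylated RNA from 28 libraries were deposited by the authors in 1 table. Per the submitters' processing notes, RSEM 1.2.12, Bowtie2 2.2.0, SAMtools 0.1.18 and edgeR 3.5.3 were used with GRCm38; their order, the annotation and any use of strand are not given in the sources used here. The counts may be rounded RSEM estimates. Without known strand, overlapping and antisense genes cannot be told apart, and near-identical genes (immunoglobulins, Ear genes, Trim30 genes) may share reads. Symbols and coordinates came from GENCODE M21, which matched 37607 of 38924 identifiers (96.6%), and promoters from RefSeq GRCm38.p6. Columns without a sample numbered 0.

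Groups followed the sample titles. R 4.3.3 and edgeR 4.0.16 were used for the tests (filterByExpr, TMM scaling, robust quasi-likelihood fit, 2-sided test). All 13 LT-HSC libraries shared 1 fit with a coefficient per group, so that young libraries helped to estimate the spread; p-values were adjusted by Benjamini-Hochberg over all 14588 genes, with a threshold of 0.05. The common coefficient of biological variation was 1.17. MPP3 entered a second fit of all 28 libraries with 16309 genes as independent libraries; since titles show that LT-HSC and MPP3 share recipient animals, a fit with 14 sets of libraries that share animals as a block was added after seeing the data. SE is the log2 change divided by the square root of its F value. CPM are TMM-normalised. DESeq2 1.42.0, limma voom 3.58.1, other filters, other scaling and left-out libraries were alternatives. Scripts were tested on simulated data.

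The members, gene lists and alternatives were chosen with earlier results of these data known. Named genes were Dnmt3a, Tnf, Tnfrsf1a and Tnfrsf1b, the 10 higher and the 10 lower genes with the smallest p among non-overlapping genes with a mean of at least 10 CPM, and 6 of each by the p without mutant replicates 1 and 4 (no overlap over all 7 libraries was kept as a condition). In each list the 3 smallest p and the 2 highest levels could be named; genes that met the rule but are not reported here were left out, and other list members were named after their values were seen. Fold bounds use a floor of 3 counts per control library. Intervals of counting error are not given, since reads without molecular identifiers are not independent.

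Replicate numbers stand for different recipient animals in each genotype. Deviations of same-numbered mutant and control libraries correlated at 0.018, -0.022 and 0.020, so the numbers did not pair the libraries. Sequencing pools were inferred from numbers in the column names: pool 1 held 1 of 3 old controls and 3 of 4 old mutants, so the comparison was also run within each pool, as an alternative added after seeing the data. Mitochondrial genes took 14.4% to 20.1% of counts in controls and 17.8% to 27.7% in mutants.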

Additional observations from a re-analysis of the deposited data

Results flagged for a closer look

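In 11 of the genes picked for this text, 1 of the 4 old mutant libraries lay far from the other 3. The rule was Dixon's criterion at 95%, which chance meets in about 1 in 20 groups. It was applied to the picked genes only, many of them chosen for their values in these libraries. The 11 can therefore not be set against that share. Mutant replicate 4 was high for Prg2, the eosinophil major basic protein (248.5 CPM, the other 3 at 0), and for Klf2 (100.3 CPM). It was low for the cohesin factor Pds5b (140.2 CPM) and for Pf4 (0 CPM). Klf2, Pds5b and Pf4 had no overlap with the controls over all 4 mutants, so leaving out 1 mutant library could not bring one.

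Mutant replicate 3 was high for Cd48 (21.57 CPM), for Gemin8 (4.006 CPM) and for Gtse1, a G2 phase gene (1.541 CPM, the other 3 at 0), and low for Flt3 (34.51 CPM). Replicate 2 was high for Clspn, a replication checkpoint gene (28.67 CPM), and low for Top2a (132.7 CPM). Replicate 1 was low for Ifitm3, an interferon-induced membrane protein (275.2 CPM, the others between 768 and 890 CPM).

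The genotype effect on Hdc differed between LT-HSC and MPP3 of old recipients by 11.8931 on the log2 scale, in a test of the difference itself (adjusted p = 0.0255 in edgeR). The adjusted p was 0.0359 with a block for shared animals, and 0.474 with that block and without mutant LT-HSC replicates 1 and 4.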

How the results depend on the processing

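The count of 0 genes at the adjusted threshold held in edgeR with DESeq2's size factors, with no filter on low counts, with a mean of at least 50 counts, with the 7 old libraries only, with the replicate block, with the pool as a covariate, without immunoglobulin genes, in limma voom and without any 1 library; DESeq2 gave 380. Genes higher at an unadjusted p under 0.05, 855 in all, were 476 in limma voom, 536 with a mean of at least 50 counts, 373 with 7 libraries, 497 with the replicate block, 567 with the pool, and 598 to 840 without 1 library each. The 636 lower genes became 401, 242 and 418 with the mean of 50 counts, with 7 libraries and with the replicate block, and 552 to 724 without 1 library each. Genes without overlap numbered 654 to 971 (higher) and 563 to 902 (lower) without 1 library each, and 1627 and 1083 of the 14204 genes tested without mutant replicates 1 and 4 (1653 and 1087 of all 14588), because fewer libraries overlap less. In that smaller comparison DESeq2 called 288 genes and had 889 lower ones; limma voom had 305 lower ones, and old libraries alone gave 287 higher and 270 lower. For the difference between old and young recipients DESeq2 called 261 genes; limma voom had 405 higher genes and the replicate block 487. For that between cell types DESeq2 called 411 genes and limma voom 6, with 738 higher. The block by shared animals gave 511 higher and 312 lower genes there, and 556, 288 and 0 calls also without mutant replicates 1 and 4. Within pool 1, 532 genes were higher, and within pool 2, 358 were higher and 300 lower.

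Replicate numbers did not pair the libraries, and the replicate block changed no adjusted call. List medians moved beyond the spread between replicates without mutant replicates 1 and 4 for TNF ligands and receptors (-0.16), interferon (-0.021, and 0.23 in limma voom), B cells (0.15, and 0.22 with the replicate block), plasma cells (-0.40), oxidative phosphorylation (-0.44) and cytokine receptors (-0.18). Without 1 library each, medians ranged from 0.29 to 0.60 for immediate early genes, 0.21 to 0.59 for interferon, 0.54 to 3.19 for B cells, 0.46 to 2.06 for T and NK cells, 0.96 to 7.05 for mast cells and their kin, -0.89 to 0.08 for G2 and M phase, and -0.49 to 0.25 for oxidative phosphorylation. Within pool 1 medians moved for S phase (-0.0987), TNF receptor signalling (0.911), immediate early genes (0.808), interferon (0.881), B cells (4.93), plasma cells (2.04), T and NK cells (2.83), megakaryocytes and erythroid cells (1.78) and stroma (1.04). Within pool 2 they moved for cell cycle inhibitors (-0.0698), TNF ligands and receptors (0), TNF receptor signalling (-0.112), immediate early genes (-0.374), interferon (-0.0381), T and NK cells (-0.203), oxidative phosphorylation (-0.471) and cytokine receptors (-0.109).

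Directions turned for genes with small or uneven changes. Dnmt3a gave -0.00249 in DESeq2, -0.0495 in limma voom, -0.00259 with DESeq2's size factors and -0.26 with the pool, and -0.48 to 0.30 without 1 library each. Tnf gave -2.48 without mutant replicates 1 and 4. Tnfrsf1a gave 0.59 in limma voom, 0.55 with the replicate block, 0.13 with the pool, and -1.21 to 2.27 without 1 library each. Ranges without 1 library each also crossed 0 for Mcm6 (-0.722 to 0.0572), Mki67 (-0.777 to 0.0104) and Top2a (-0.19 to 0.17). The difference between old and young recipients for Pcyt1b was 0.19 without mutant replicates 1 and 4, against -0.77. Within pool 1 directions turned for Clspn (1.25), Dnmt3b (1.03), Mcm2 (0.12), Meis1 (0.47), Tnfrsf1a (2.18) and Top2a (0.14), and within pool 2 for Dnmt3a (-0.98), Mcm6 (0.0395) and Top2a (0.034). With the block by shared animals and without mutant replicates 1 and 4, the difference between cell types was -0.00706 for Fosb and 0.49 for Pigs. The cause of these shifts was not tested.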

Other observations

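Of 77 tested ribosomal protein genes 18 had a log2 change above 0 (23.4%, beside 53.3% of all genes), 4 were entirely lower in mutants (Rpl14, Rps25, Rps28 and Rps29; 5.19%, beside 2.43% of all genes), 2 were lower at an unadjusted p under 0.05 (2.60%, beside 4.36%), and the median was -0.27, or -0.35 without mutant replicates 1 and 4. Rpl10a stood at 647, 417 and 679 CPM in controls and at 266, 293, 235 and 449 CPM in mutants, with mutant replicate 4 above the lowest control. Of 71 tested genes of oxidative phosphorylation, 2 were entirely lower (2.82%, beside 2.43%). Atp5b, a subunit of ATP synthase, was at 495, 391 and 644 CPM in controls and at 316, 181, 362 and 338 CPM in mutants.

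Met, the receptor for hepatocyte growth factor, had no count in old controls and stood at 41.2, 4.50, 2.62 and 0.535 CPM in mutants, a mean at least 23.4-fold higher than the floor of the controls; the lowest mutant held 3 counts. Il10ra, a subunit of the interleukin-10 receptor, had no count in old controls or in young LT-HSC and was at 4.18, 9.64, 0 and 58.0 CPM in mutants. Nkg7, a granule protein of cytotoxic cells, was at 50.8, 234 and 36.6 CPM in old controls, at 1.94, 28.4, 1.23 and 28.5 CPM in old mutants and at 2.04 to 12.1 CPM in young LT-HSC. All 3 were chosen after their values were seen.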
